A study of Mus musculus with 20 samples.

Results

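Dermal fibroblasts of refed old mice were compared with those of young mice. The comparison uses 10 of the 20 arrays of a study of diet and age in mouse skin, 5 labelled Old CR-ND and 5 labelled Young ND, chosen by the diet and age in their labels. All mice were female. Old CR-ND mice were 9 months old at the start, were held at 30% caloric restriction over 7 months, returned to normal food for the last 2 months and were collected at 18 months. Young ND mice were 4 weeks old at the start and ate normal food for 4 weeks. Old ND mice were also 9 months old at the start, ate normal food until collection at 18 months, and differ from Old CR-ND in never having been restricted; their 5 arrays serve to place the refed mice beside old mice that were never restricted. Old CR mice, with 2 months of normal food before 7 months of restriction up to collection, appear only beside the imprinted genes. The cells of all groups came from skin freed of its subdermal layer and were sorted as Pdgfra and CD34 positive and as negative for CD45, CD117, CD24, CD31 and EpCam. Age and earlier restriction cannot be told apart between Old CR-ND and Young ND, since the groups differ in both.

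Dermal fibroblasts make the collagen-rich matrix of the skin. Collagen chains are hydroxylated and folded in the endoplasmic reticulum, carried to the Golgi in vesicles large enough for procollagen, trimmed outside the cell and crosslinked by lysyl oxidases. The same cells also secrete complement proteins, chemokines and lipid carriers, and respond to interferon. In animals, caloric restriction is best known for delaying many changes of age, and refeeding asks what remains of a restriction that has ended.

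Each value is a log2 level after RMA, a procedure that corrects background, equalises the arrays and combines the probes of a probe set. Deposited values ran from 2.71 to 13.46, and array medians lay between 5.27 and 5.34. Each of 17097 genes was represented by its probe set with the highest mean over the 20 arrays. Array numbers in the titles fall in 2 separate ranges, called sets here; the first holds 3 Old CR-ND and 3 Young ND arrays and the second 2 of each, as replicates 4 and 5. The first principal component held 26.9% of the variance and the second 17.2%. On the first, Young ND arrays lay at 16.7 to 33.2 and the arrays of the other groups at -17.9 to 1.54. On the second component, second-set arrays lay at -18.6 to -10.5 and first-set arrays at -9.86 to 19.3. The main comparison did not include the set. Of the markers the cells were sorted for, neither passed: Cd34 averaged 11.19 in Old CR-ND and 11.30 in Young ND (adjusted p = 0.569), and Pdgfra 6.08 against 5.71 (adjusted p = 0.243). Among the genes of the markers sorted against, Cd24a was lower in Old CR-ND by 1.30 on the log2 scale (adjusted p = 0.000454), while Ptprc, Kit, Pecam1 and Epcam lay between -0.02 and 0.02 and did not pass. Ptprc (3.13 to 3.32 in these groups) and Kit (3.29 to 3.49) read below the lower quartile of the arrays (4.11 to 4.25). Values that low say little on how many such cells remained.

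Between Old CR-ND and Young ND, 1203 of the 17097 genes changed (limma, Benjamini-Hochberg adjusted p under 0.05), which is 7.04% of all genes. Of these, 550 rose (3.22%) and 653 fell (3.82%), and 131 changed at least 2-fold, 73 up and 58 down (0.766% of all genes). The median difference over all genes was -0.002. The 12 largest rises and the 12 largest falls named below are those among genes with a higher group mean above the median gene level (5.875), predicted and clone symbols left out. Gene lists used below were chosen with earlier results of these data known, so their counts and medians describe the lists and do not test them. Within the first set 795 genes passed and within the second 621, and without Old CR-ND replicate 3 the count was 790. Centring each array on its median gave 437 rises and 905 falls, or 32.6% rises against 45.7% as deposited. A bulk array cannot tell fewer cells of a type from less RNA per cell, and this holds for all values below.

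The largest rises belonged to Tmem176a and its neighbour Tmem176b, which encode membrane proteins of the same family and lie head to head on chromosome 6. Their start regions share bases, which is why the sequence is shown: the 250 bases before the Tmem176a start (RefSeq, GRCm38.p6, chr6:48841233-48841482, plus strand), with capitals for the 108 bases that also lie within the 250 bases before the Tmem176b start on the other strand.
Tmem176a: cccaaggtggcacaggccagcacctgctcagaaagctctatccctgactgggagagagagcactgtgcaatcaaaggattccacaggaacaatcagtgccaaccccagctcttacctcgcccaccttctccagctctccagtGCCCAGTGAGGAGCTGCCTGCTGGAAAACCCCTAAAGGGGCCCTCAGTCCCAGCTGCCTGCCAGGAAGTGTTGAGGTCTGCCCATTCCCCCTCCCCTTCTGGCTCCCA

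Tmem176a read 5.59, 5.74, 5.70, 6.04 and 6.01 in the Young ND arrays and 9.10, 9.16, 9.84, 9.38 and 9.18 in the Old CR-ND arrays. Every refed array stood far above every young array. The log2 difference was 3.52 ± 0.15 (SE), an 11.4-fold rise (adjusted p = 4.03e-12, n = 5 and 5, limma). Tmem176b read 7.57, 8.11, 8.03, 8.10 and 8.08 in Young ND against 10.53, 10.73, 11.10, 10.76 and 10.72 in Old CR-ND. Its young values were close together except the lowest, replicate 1, and its rise was 2.79 ± 0.12 (adjusted p = 4.33e-12). Old ND arrays stood at the same height: their differences from Young ND, against the same young arrays, were 3.50 for Tmem176a and 2.80 for Tmem176b.

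**Figure D1:**
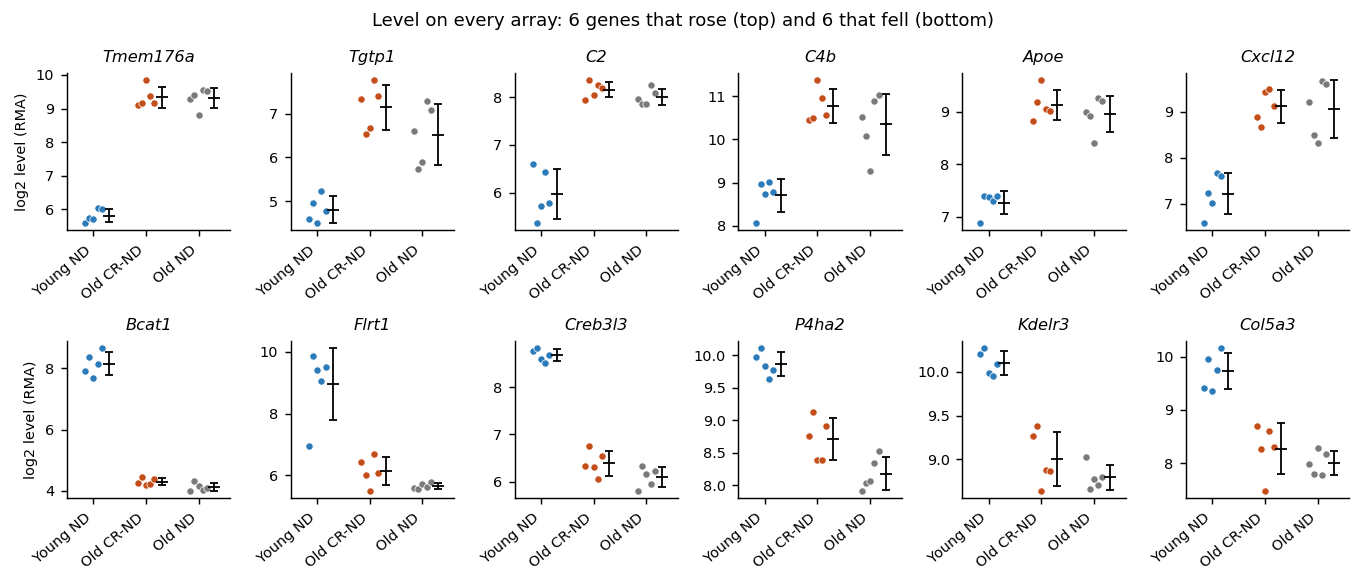
Log2 level (RMA, vertical axis, scale differs by gene) of 12 genes on each array of Young ND (blue), Old CR-ND (orange) and Old ND (grey); points are arrays in replicate order, the bar and whiskers are the mean and SD (n = 5). In each gene the Old CR-ND arrays do not overlap the Young ND arrays, as with Tmem176a (9.10 to 9.84 against 5.59 to 6.04) and Bcat1 (4.18 to 4.46 against 7.67 to 8.65).

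Several complement genes rose. Complement is a cascade of plasma proteases and binding proteins in which C1r and C1s start the classical pathway, C2 and C4 form its convertase and factor B that of the alternative pathway. Of 21 measured complement components and regulators, 7 rose and none fell (3.22% and 3.82% of all genes), with a median difference of 0.104 beside -0.002 over all genes. C2, which also ranked among the 12 largest rises, read 6.59, 5.36, 5.71, 6.43 and 5.78 in Young ND and 7.94, 8.35, 8.05, 8.26 and 8.18 in Old CR-ND. The refed arrays lay closer together than the young ones and above all of them, by 2.18 ± 0.18 (adjusted p = 1.95e-07). C4b, which is cleaved in forming that convertase, read 8.06, 8.96, 8.74, 9.01 and 8.78 against 10.45, 10.50, 11.37, 10.97 and 10.57. It rose by 2.06 ± 0.26 (adjusted p = 3.43e-05), with Young ND replicate 1 the lowest of the 10 arrays. Cfb, complement factor B, rose by 1.36 ± 0.14 (adjusted p = 3.17e-06). C1s1, the C1s protease, was uniform within groups, at 9.34 to 9.60 in Young ND and 10.47 to 10.60 in Old CR-ND, a rise of 1.07 ± 0.08 (adjusted p = 2.76e-08). The remaining rises were C1ra at 0.74, the chaperone clusterin, Clu, at 0.96 and C1rb at 0.24. The mean level over the 21 genes ran from 7.25 to 7.38 in Old CR-ND and from 6.83 to 6.92 in Young ND. The other 14 members did not pass, and 1 fell without Old CR-ND replicate 1. Old ND had 6 rises and 1 fall in this list against the same young arrays, beside 4.45% rises and 6.49% falls over all genes.

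Interferon response genes held the largest number of rises of any list. These genes encode GTPases, RNA sensors and regulators that are switched on when interferon reaches a cell. Of 36 measured members 14 rose and 1 fell, with a median of 0.382, beside 3.22% rises and 3.82% falls over all genes. In addition Tgtp1, an interferon-inducible GTPase outside the list, had the third of these largest rises.

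The sequences show where promoters of these risen genes hold GAAA, any 2 bases and GAAA again, the spaced repeat that interferon regulatory factors are known to bind; both strands were searched over the 250 bases before each start, and matches, which may overlap each other, are in capitals. All stretches are from RefSeq (GRCm38.p6) and are written on the gene's strand: Tgtp1 at chr11:48992279-48992358 (minus), Igtp at chr11:58199487-58199555 (plus), Irgm1 at chr11:48871421-48871485 (minus), Ifit3 at chr19:34583338-34583451 (plus), Ifi203 at chr1:173942493-173942562 (minus) and Rsad2 at chr12:26456528-26456607 (minus).
Tgtp1: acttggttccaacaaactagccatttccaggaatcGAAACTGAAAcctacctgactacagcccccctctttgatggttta
Igtp: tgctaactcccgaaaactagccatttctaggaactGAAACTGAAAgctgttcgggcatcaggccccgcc
Irgm1: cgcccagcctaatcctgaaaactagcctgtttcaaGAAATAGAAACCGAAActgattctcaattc
Ifit3: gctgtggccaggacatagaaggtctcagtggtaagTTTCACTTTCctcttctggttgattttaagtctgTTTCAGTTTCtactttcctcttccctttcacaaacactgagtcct
Ifi203: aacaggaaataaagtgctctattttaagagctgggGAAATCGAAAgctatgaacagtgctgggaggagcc
Rsad2: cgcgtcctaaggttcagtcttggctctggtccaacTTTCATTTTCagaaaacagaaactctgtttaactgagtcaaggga
The letters occurred in the promoters of 5 of the 11 risen list members that have a window in the table, of 5 of the 14 windowed members that did not pass, and of 936 of the 27025 genes of the whole table (3.46%). As shares of windowed members these are 45.5% of the risen and 35.7% of those that did not pass. A match here describes letters and not a bound site.

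Tgtp1 read 4.59, 4.96, 4.50, 5.24 and 4.77 in Young ND and 7.34, 6.54, 6.67, 7.76 and 7.41 in Old CR-ND. All refed arrays were above all young arrays, although they spread over more than 1 log2 unit, and the rise was 2.33 ± 0.30 (adjusted p = 4.03e-05). Its near copy Tgtp2 makes the source of this signal uncertain. Iigp1, a GTPase of the same family, read 9.21, 9.21, 9.26, 9.13 and 9.34 against 10.12, 9.98, 10.35, 10.39 and 10.09. Its groups did not overlap and it rose by 0.96 ± 0.16 (adjusted p = 0.000644). Igtp, the family member whose promoter is printed above, rose by 0.86 ± 0.18 (adjusted p = 0.00329). Oasl2, an oligoadenylate synthetase-like gene, rose by 0.87 ± 0.17 (adjusted p = 0.00261), from 6.32 to 7.38 in Young ND to 7.57 to 8.04 in Old CR-ND.

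The other risen members were Ifi204 (1.42), Ifi203 (0.97), Irgm1 (0.85), Ifit2 (0.80), Rsad2 (0.75), Mx2 (0.73), Ifit3 (0.57), Irf9 (0.53), Samhd1 (0.50), Irf8 (0.48) and Irf7 (0.43), so that DNA sensors, antiviral effectors and 3 interferon regulatory factors were among them. Gbp4, a guanylate-binding protein, went the other way: it read 9.60, 9.54, 9.21, 9.07 and 9.22 in Young ND and 8.91, 8.74, 8.34, 8.51 and 8.45 in Old CR-ND, a fall of 0.74 ± 0.13 on the log2 scale (adjusted p = 0.00091).

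The interferon values differed with the set of array numbers. The median of the 36 members was 0.21 within the first set, where 7 rose, and 0.57 within the second, and the list's mean level was 7.33 to 7.50 in the first-set Old CR-ND arrays and 7.57 to 7.63 in the second-set ones, beside 7.03 to 7.17 over all Young ND arrays. Old ND arrays were at 7.06 to 7.23 in the first set and at 7.50 and 7.61 in the second. Without Old CR-ND replicate 3 the list had 9 rises, and likewise 9 without replicate 4. A test of the difference between the sets called no gene out of 17097. In it 825 had an unadjusted p under 0.05, where about 0.05 of genes would with no difference. For Oasl2, at 0.50 and 1.42 within the sets, the adjusted p of this test was 0.999. Keratinocyte genes, markers of the cells above the dermis, had a median of 0.304, 0.123 and 0.53 within the sets (0 of 13 members passed, mean level 6.16 to 7.06 in Old CR-ND and 5.79 to 6.70 in Young ND), and their part in the result was not tested.

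**Figure D2:**
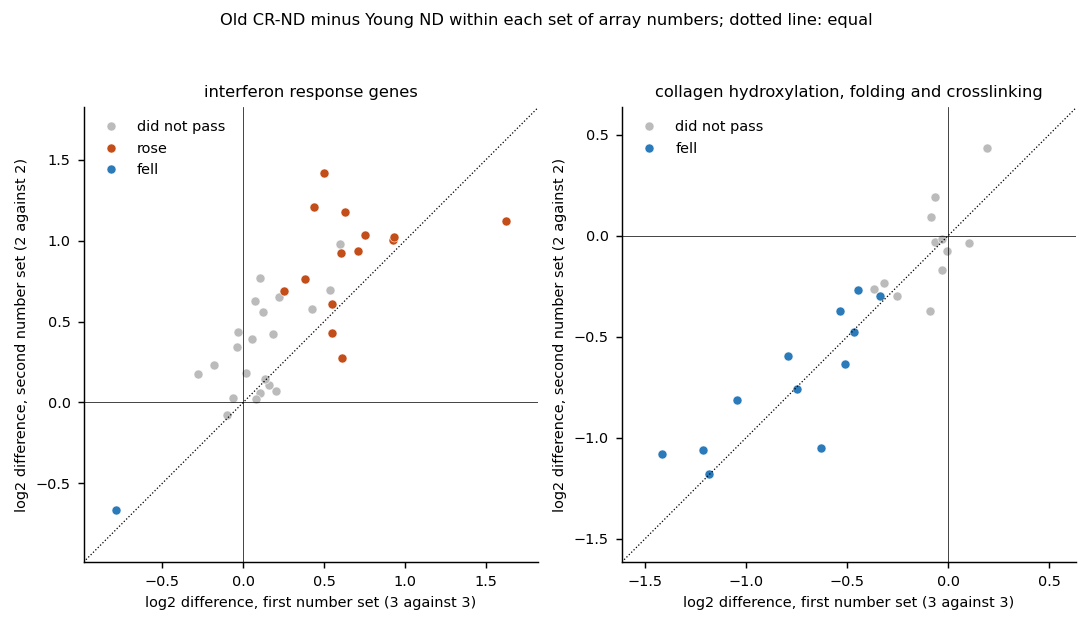
Each point is a gene of the interferon list (left, 36 genes) or of the collagen processing list (right, 24 genes): log2 difference Old CR-ND minus Young ND among first-set arrays (3 against 3, horizontal) and second-set arrays (2 against 2, vertical), with genes that rose in orange, fell in blue and did not pass in grey. Most interferon genes lie above the dotted line of equal difference (medians 0.21 and 0.57), while the collagen processing genes lie around it (medians -0.35 and -0.30).

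Immune signalling beyond interferon rose in part. Cxcl12, a chemokine that fibroblasts make and that holds and guides leukocytes, read 6.58, 7.24, 7.01, 7.68 and 7.61 in Young ND and 8.88, 8.66, 9.43, 9.49 and 9.12 in Old CR-ND. All refed arrays exceeded all young ones, and the rise was 1.89 ± 0.25 (adjusted p = 5.83e-05), or 1.09 when its 3 probe sets were averaged. Cx3cl1, the chemokine fractalkine, rose by 1.12 ± 0.14 (adjusted p = 2.84e-05). Ccl19, which attracts dendritic cells and T cells, rose by 0.80 ± 0.13 (adjusted p = 0.000316). Of 36 chemokines and cytokines 5 rose, also Il7 (0.54) and Ccl9 (0.27), where 3.22% of all genes rose and 3.82% fell. Ccl2, the monocyte chemokine, was the 1 fall, of 0.72 (adjusted p = 0.0485). This fall was lost without Young ND replicate 1, 2, 4 or 5 or Old CR-ND replicate 1, 2, 3 or 5, and within the first set. Of 24 antigen presentation genes 4 rose (median 0.233): the proteasome activator subunit Psme1 by 0.51 ± 0.10 (adjusted p = 0.00189), H2-T23, Psmb10 and H2-M3. That count was 2 without Old CR-ND replicate 1 or 2 or Young ND replicate 4 or 5, and H2-M3 also lost its call without Young ND replicate 1 or 2 or Old CR-ND replicate 4; H2 genes share sequence with each other.

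Lipid carriers rose alongside. Apoe, apolipoprotein E, read 6.88, 7.40, 7.38, 7.30 and 7.39 in Young ND and 8.83, 9.18, 9.60, 9.06 and 9.01 in Old CR-ND, with each group tight and well apart. It rose by 1.87 ± 0.15 (adjusted p = 1.11e-07). Pltp, which moves phospholipid between lipoproteins, rose by 1.23 ± 0.19 (adjusted p = 0.000263). Of 16 genes of apolipoproteins and sterol transport 5 rose, with Apoc1 (0.82), Apod (0.83) and Clu (0.96), and 1 fell: Npc1, which exports cholesterol from lysosomes, by 0.53 ± 0.08 on the log2 scale (adjusted p = 0.000404). The median of the list was 0.128, and over all genes 3.22% rose and 3.82% fell.

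The largest of these falls was that of Bcat1, the cytosolic enzyme that transfers the amino group of branched-chain amino acids. It read 7.91, 8.36, 7.67, 8.15 and 8.65 in Young ND and 4.27, 4.46, 4.18, 4.21 and 4.39 in Old CR-ND. The refed values sat close to the lower quartile of the arrays (4.11 to 4.25), and detection calls were not used here. The difference was -3.85 ± 0.13 (adjusted p = 5.48e-14), and -2.31 with its 3 probe sets averaged. Aldh1l2, a mitochondrial enzyme of folate metabolism, stood at the same low level in Old CR-ND: 7.24, 6.83, 5.65, 6.05 and 6.58 became 4.04, 3.99, 4.11, 4.11 and 4.15. Its difference was -2.39 ± 0.20 (adjusted p = 1.95e-07). Among 25 genes of amino acid breakdown and synthesis 3 fell and 1 rose (3.82% and 3.22% of all genes), with a median of -0.04. Besides Bcat1 these were the proline synthesis enzyme Aldh18a1, at -1.10 ± 0.19 (adjusted p = 0.00108), and asparagine synthetase, Asns, at -0.67 ± 0.18 (adjusted p = 0.0224). Leaving out Old CR-ND replicate 3, or replicate 2, 4 or 5 of Young ND, ended the call of Asns (adjusted p up to 0.066). Bckdhb, a subunit of the branched-chain keto acid dehydrogenase, rose by 0.46 (adjusted p = 0.0273) and lost its call without Old CR-ND replicate 1, 2 or 4 or Young ND replicate 4 (adjusted p up to 0.074).

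Further large falls were of varied function. Creb3l3, a transcription factor activated at the endoplasmic reticulum, read 8.78, 8.83, 8.60, 8.52 and 8.69 against 6.32, 6.75, 6.30, 6.05 and 6.54, at -2.29 ± 0.12 (adjusted p = 8.05e-11). Flrt1, an adhesion protein of the cell surface, read 6.94, 9.86, 9.41, 9.07 and 9.50 against 6.44, 6.0, 5.49, 6.69 and 6.07. Young ND replicate 1 lay near the refed arrays while its 4 companions were far above them, and the difference was -2.82 ± 0.36 (adjusted p = 3.98e-05). Miat, a long noncoding RNA, read 9.29, 9.28, 9.28, 9.15 and 9.44 against 6.76, 7.40, 7.12, 6.98 and 7.32, at -2.17 ± 0.20 (adjusted p = 7.82e-07). The membrane-bound protein Basp1 fell by 2.09 ± 0.23 on the log2 scale (adjusted p = 7.42e-06), and the adenylyl cyclase Adcy1 was at -1.92 ± 0.18 (adjusted p = 9.48e-07). Cbr2, a carbonyl reductase, read 5.45, 8.67, 7.04, 8.99 and 10.07 in Young ND and 5.00 to 5.6 in Old CR-ND. Its groups overlapped through Young ND replicate 1, and the difference of -2.73 ± 0.52 (adjusted p = 0.002) was -1.86 within the first set and -4.03 within the second. Obox2 (-2.30) and Camk2a (-1.96), a calcium-dependent kinase, came to -0.80 and -0.84 with their probe sets averaged, and Obox genes are near copies of each other.

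Many genes that process collagen fell. Of 24 genes that hydroxylate, fold, trim or crosslink collagen 12 fell and none rose, with a median of -0.324. Over all genes 3.82% fell and 3.22% rose. P4ha2, a subunit of prolyl 4-hydroxylase, read 9.98, 10.11, 9.83, 9.63 and 9.78 in Young ND and 8.76, 9.13, 8.39, 8.38 and 8.91 in Old CR-ND. Every refed array was lower than every young array, and the difference was -1.15 ± 0.14 (adjusted p = 2.57e-05). P3h4, part of the complex that modifies lysines in the collagen helix, read 8.80, 8.92, 8.75, 8.73 and 8.84 against 8.23, 8.10, 7.89, 8.01 and 8.04, at -0.75 ± 0.08 (adjusted p = 2.45e-06). Loxl2, a lysyl oxidase-like crosslinking enzyme, read 9.30, 9.30, 8.90, 8.82 and 9.28 against 8.37, 8.28, 7.71, 8.26 and 8.21, at -0.95 ± 0.12 (adjusted p = 4.03e-05). Serpinh1, the collagen chaperone HSP47, was among the brighter probe sets in both groups, at 12.31 to 12.43 and 11.61 to 12.02, and fell by 0.56 ± 0.08 on the log2 scale (adjusted p = 0.00019). The others were the lysyl hydroxylase Plod1 (-1.28), the lysyl oxidases Lox (-1.18) and Loxl4 (-0.71), P3h1 (-0.80), the procollagen enhancer Pcolce (-0.47), Colgalt1 (-0.47), Bmp1 (-0.38) and Ppib (-0.32). Without each array in turn the list had 9 to 14 falls. Its mean level was 8.27 to 8.58 in Old CR-ND and 8.76 to 8.96 in Young ND, without overlap.

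Of 11 fibrillar collagen genes 4 fell and none rose (median -0.224), beside 3.82% falls and 3.22% rises over all genes. The falls were largest for type V, a minor collagen that sets fibril diameter. Col5a3 read 9.42, 9.95, 9.36, 9.75 and 10.16 against 8.70, 8.26, 7.48, 8.60 and 8.31, at -1.46 ± 0.20 (adjusted p = 5.93e-05). Col5a2 was at -0.93 ± 0.10 (adjusted p = 6.47e-06) and Col5a1 at -0.97 ± 0.12 (adjusted p = 3.13e-05). Col1a1, a chain of the main collagen of skin, read 13.36, 13.37, 13.31, 13.31 and 13.32 against 13.04, 13.13, 12.77, 12.85 and 12.85. These values are near the top of the scale, at 13.46, and the fall was 0.41 ± 0.08 on the log2 scale (adjusted p = 0.00203). Its partner chain Col1a2 was at -0.22 ± 0.18 (adjusted p = 0.562). The Col1a2 probe set read only 7.25 to 7.95 in Old CR-ND and 7.45 to 8.18 in Young ND, far below Col1a1. At that level it does not show that Col1a2 was unchanged. Col3a1 was at -0.21 ± 0.07 (adjusted p = 0.0586). Col3a1 passed without Old CR-ND replicate 1 (adjusted p = 0.041) and came to -1.41 with its 2 probe sets averaged. Of 30 non-fibrillar collagens 7 fell (median -0.129), led by Col4a5, a basement membrane chain, at -1.45 ± 0.19 (adjusted p = 4.03e-05). This count of 7 became 2 to 4 without Young ND replicate 1, 2, 3 or 5 or Old CR-ND replicate 3, 4 or 5. Col4a5 read 3.84 to 4.23 in Old CR-ND, around the lower quartile of the arrays (4.11 to 4.25), and its dimmer probe set was at -0.16.

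Genes of the secretory pathway fell too. In a list of 38 secretory chaperones and stress-response genes of the endoplasmic reticulum 10 fell and none rose, with a median of -0.166. The shares over all genes were 3.82% falls and 3.22% rises. Kdelr3, a receptor that returns chaperones from the Golgi, read 10.20, 10.27, 9.99, 9.95 and 10.09 against 9.27, 9.38, 8.64, 8.88 and 8.87, at -1.09 ± 0.12 (adjusted p = 6.47e-06). Sec24d, of the coat that buds vesicles from the endoplasmic reticulum, was at -0.83 ± 0.09 (adjusted p = 8.96e-06), and its coat partner Sec23a at -0.73 ± 0.12 (adjusted p = 0.000567). The translocon-associated subunits Ssr2 (-0.92), Ssr1 (-0.54) and Ssr3 (-0.44), the receptor Kdelr2 (-0.56), the procollagen export protein Mia3 (-0.53) and the transcription factors Creb3l1 (-0.64) and Xbp1 (-0.32) made up the rest. Over all 38 members, whether or not they passed, 10 had every refed array below every young array and 0 had every one above. Creb3l1 passed with overlapping arrays. Over all 17097 genes, 3.51% had every Old CR-ND array below every Young ND array and 3.08% every one above.

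**Figure D3:**
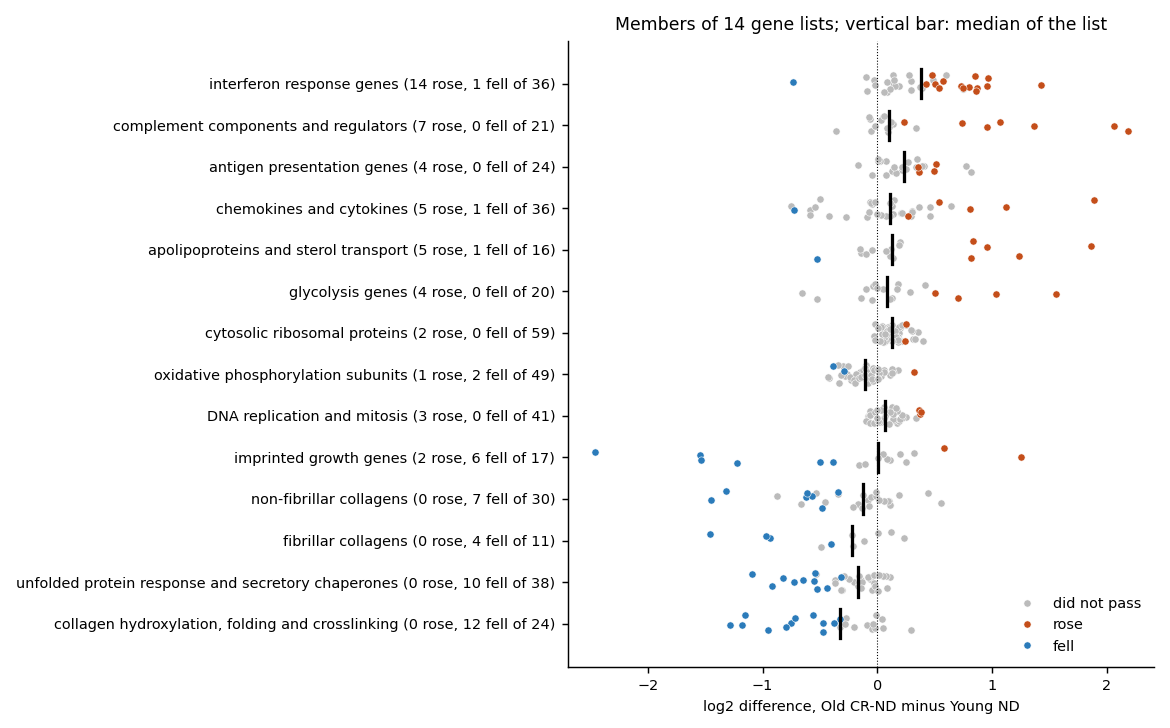
Log2 difference Old CR-ND minus Young ND (horizontal axis) of each measured member of 14 gene lists (a row each; vertical scatter within a row carries no value), with rises in orange, falls in blue, members that did not pass in grey and the list's median as a black bar. The interferon row has its median at 0.382 with 14 rises, and the collagen processing row has its median at -0.324 with 12 falls.

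The rest of the matrix changed in single genes, beside 3.22% rises and 3.82% falls over all genes. Of 25 matrix proteases and inhibitors 3 rose and 3 fell (median -0.014): Mmp11, stromelysin-3, rose by 1.02 ± 0.20 (adjusted p = 0.00289) and the protease inhibitor Reck by 0.67 ± 0.16 (adjusted p = 0.00978), while the gelatinase Mmp2 was at -0.40 ± 0.09 (adjusted p = 0.00659). Mmp16 and Mmp23 were lower as well and Adamts5 higher; Mmp16, at -0.95, lost its call without Old CR-ND replicate 3 (adjusted p = 0.081) or Young ND replicate 3 (0.052), and without Old CR-ND replicate 3 the list had 1 fall. Ccn2, a growth factor-binding matricellular protein, rose by 0.58 ± 0.13 (adjusted p = 0.0084). Small leucine-rich proteoglycans (1 of 12 fell, median -0.297), elastic fibre genes (1 of 15 fell, 0.164) and matricellular glycoproteins (1 rose and 1 fell of 20, -0.011) each had a fall, Podn, Mfap2 and Vcan, that was lost without Young ND replicate 1 or 2 or Old CR-ND replicate 3, 4 or 5, and for Mfap2 also Young ND replicate 3.

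Imprinted genes gave both rises and falls, and held the 1 gene that passed between refed and never-restricted old mice. An imprinted gene is read from the copy of 1 parent, and many act on growth. Of 17 measured, 6 fell and 2 rose (median 0.006), where 3.82% of all genes fell and 3.22% rose. Meg3, Rian and Mirg are neighbouring noncoding RNAs of chromosome 12 read from the maternal copy, and microRNAs are cut from them: by RefSeq coordinates Meg3 spans 1 miRNA hairpin, Rian 3 and Mirg 10. The sequences below are 4 of the 19 mature miRNAs of Mirg and 2 of the 6 of Rian (RefSeq, GRCm38.p6), with the seed, bases 2 to 8, in capitals; they show what these transcripts carry, and the array did not measure them. All lie on the plus strand: miR-453 at chr12:109735669-109735692, miR-496a-5p at chr12:109739132-109739152, miR-377-3p at chr12:109740553-109740574, miR-410-3p at chr12:109743764-109743784, miR-370-3p at chr12:109618305-109618326 and miR-341-3p at chr12:109611556-109611576. miR-453 and miR-496a-5p share the seed GGUUGCC, and the other 4 seeds differ.
miR-453: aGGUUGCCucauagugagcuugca
miR-496a-5p: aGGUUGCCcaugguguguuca
miR-377-3p: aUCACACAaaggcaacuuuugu
miR-410-3p: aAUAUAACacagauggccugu
miR-370-3p: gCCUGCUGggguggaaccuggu
miR-341-3p: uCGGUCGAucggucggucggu

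Mirg read 8.93, 9.55, 8.92, 9.51 and 9.25 in Young ND and 5.20, 7.39, 6.79, 7.23 and 7.23 in Old CR-ND. Replicate 1 was the lowest refed array by a wide gap, and all refed arrays lay under all young ones, at -2.46 ± 0.31 (adjusted p = 3.13e-05). Rian read 10.66, 10.86, 10.87, 10.63 and 10.82 against 9.00, 9.26, 9.37, 9.21 and 9.28. Both groups were tight and lay well apart, with a difference of -1.54 ± 0.13 (adjusted p = 2.38e-07). Meg3 read 11.90, 11.95, 11.86, 11.44 and 11.46 against 9.83 to 10.42, at -1.54 ± 0.20 (adjusted p = 4.03e-05). The paternally expressed Peg3 (-1.23) and Plagl1 (-0.50) and the growth factor adaptor Grb10 (-0.38) fell as well. Igf2, the insulin-like growth factor of the embryo, rose: it read 8.64, 8.30, 8.24, 7.66 and 7.70 in Young ND and 9.53, 9.49, 9.43, 9.24 and 9.11 in Old CR-ND, higher in each refed array, by 1.25 ± 0.17 (adjusted p = 9.49e-05). Cdkn1c, a cyclin-dependent kinase inhibitor, rose by 0.58 ± 0.12 (adjusted p = 0.0036).

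**Figure D4:**
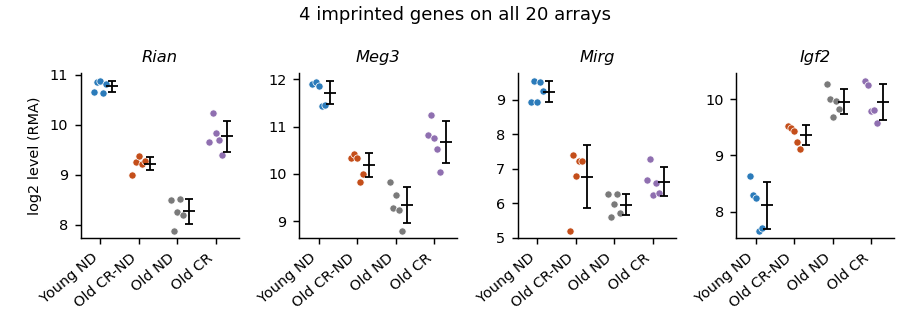
Log2 level (RMA, vertical axis, scale differs by gene) of Rian, Meg3, Mirg and Igf2 on the 20 arrays of the 4 groups; points are arrays in replicate order, the bar and whiskers are the mean and SD (n = 5). Rian arrays of Old CR-ND (9.00 to 9.37) are under those of Young ND (10.63 to 10.87) and above those of Old ND (7.88 to 8.51).

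Whether refed old mice differed from old mice never restricted was tested directly, as the contrast Old CR-ND minus Old ND. The young arrays do not enter the difference, but all 4 groups set its spread. Of 17097 genes 868 had an unadjusted p under 0.05, where about 0.05 of them would with no difference, and 1 passed (0.00585%). That gene was Rian, at 8.49, 7.88, 8.25, 8.51 and 8.20 in Old ND. It was higher in each refed array than in each Old ND array, by 0.96 (adjusted p = 0.00736), and Old CR arrays averaged 9.77. Arrays also did not overlap for some genes that did not pass, such as Igf2 (9.11 to 9.53 in Old CR-ND, 9.69 to 10.28 in Old ND). The share of such genes over all genes was not counted. Meg3 averaged 10.19 in Old CR-ND, 9.34 in Old ND, 10.68 in Old CR and 11.72 in Young ND, and Mirg 6.77, 5.96, 6.62 and 9.23; their refed minus Old ND differences, 0.85 and 0.81, did not pass. Fitted on the arrays of these old groups only, Rian missed the threshold (adjusted p = 0.060) and no gene passed, while with the array set as a block 8 genes passed, Meg3 and the lysosomal protease Ctsh among them.

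Beside Young ND, the old mice on normal food throughout had 1870 changed genes (10.9%; 761 rose, 1109 fell). Both comparisons use the same young arrays, so values are given side by side. The 12 largest rises of refed mice were 1.03 to 3.50 in Old ND, and the 12 largest falls -4.02 to -1.58; all 24 passed there too. The refed minus Old ND difference ran from -0.52 (Galnt15) to 0.62 (Tgtp1) among the 12 rises and from -0.42 (F13a1) to 0.81 (Mirg) among the falls, none of which passed. By lists, collagen processing had 17 falls and a median of -0.513 in Old ND beside 12 and -0.324, secretory chaperones 17 and -0.301 beside 10 and -0.166, and interferon genes 7 rises and 0.144 beside 14 and 0.382. The medians of the direct refed minus Old ND differences were 0.148, 0.074 and 0.189, with no member passing in these lists.

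**Figure D5:**
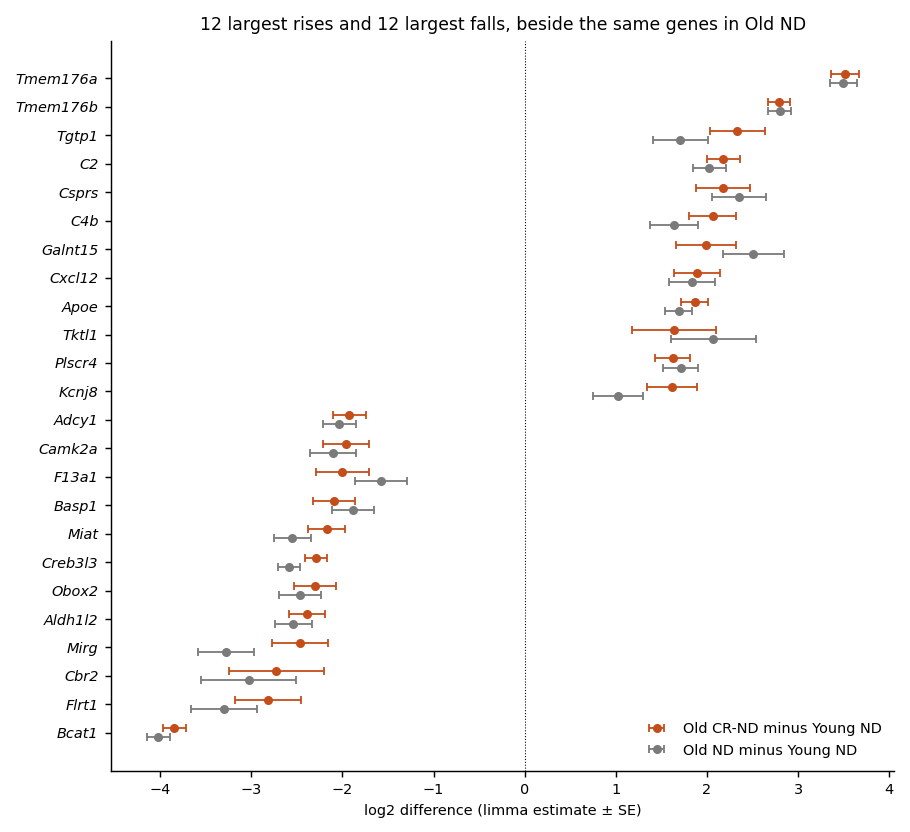
Log2 difference ± SE (limma, horizontal axis) of the 12 largest rises and the 12 largest falls in Old CR-ND against Young ND (orange), with Old ND against the same Young ND arrays (grey). For Tmem176a the values of both comparisons nearly coincide (3.52 and 3.50), and no direct difference between the old groups passed for these 24 genes.

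Some metabolic genes changed, beside 3.22% rises and 3.82% falls over all genes. Of 20 glycolysis genes 4 rose and none fell (median 0.08), with 1 fall without Young ND replicate 3. Ldhb, a lactate dehydrogenase subunit, read 6.19, 5.94, 6.4, 6.97 and 6.09 in Young ND and 7.85, 7.85, 7.83, 8.04 and 7.79 in Old CR-ND, nearly equal among refed arrays and above all young ones, by 1.55 ± 0.13 (adjusted p = 2.8e-07). The neuronal enolase Eno2 rose by 1.03 ± 0.20 (adjusted p = 0.00187), the glucose transporter Slc2a3 by 0.70 ± 0.12 (adjusted p = 0.000658) and Tpi1 by 0.50 ± 0.09 (adjusted p = 0.00161). Among 36 antioxidant and detoxifying enzymes 2 rose and 4 fell (median 0.033). The endoplasmic reticulum peroxidases Gpx7, at -1.10 ± 0.14 (adjusted p = 2.5e-05), and Gpx8, at -0.57, fell with Cbr2 and haem oxygenase Hmox1 (-0.86), and the glutathione transferase Gstt1 (0.84) and Aldh3a1 (0.53) rose, with 4 rises without Old CR-ND replicate 5. The nuclear receptor Ppard, with 1 fall and 2 rises among 22 fatty acid oxidation genes, was at -0.98 ± 0.14 (adjusted p = 0.000173). That list had 1 rise without Young ND replicate 1, 2 or 3 or Old CR-ND replicate 2, 3 or 4, with Acadm at an adjusted p up to 0.13, and 2 falls without Old CR-ND replicate 1 or Young ND replicate 4. Plin2, the coat protein of lipid droplets, rose by 0.49 ± 0.09 (adjusted p = 0.00173), as 1 of 2 rises among 23 adipogenic genes. The other, the growth factor Fgf10 at 0.53, was lost without Young ND replicate 2, 4 or 5 or Old CR-ND replicate 2, 4 or 5 (adjusted p up to 0.0911), and the list had no rise within the first set and 4 with the set as a block. Fatty acid and triglyceride synthesis had 2 rises and 1 fall of 20, all lost without Young ND replicate 2; 3 fell without Young ND replicate 1 and 2 without Old CR-ND replicate 4. None of 21 cholesterol synthesis genes passed in limma, and 3 were under 0.05 before adjustment; of those nearest to passing, Ebp was at -0.20 (adjusted p = 0.201) and Hsd17b7 at 0.21 (adjusted p = 0.223). Another of the 3 probe sets of Hsd17b7, dimmer on average, was at 0.41 and passed when each probe set was tested on its own (adjusted p = 0.0186).

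Some ribosomal and respiratory chain genes passed, beside 3.22% rises and 3.82% falls over all genes. Of 59 cytosolic ribosomal protein genes 2 rose (median 0.126), Rps4x by 0.24 and Rps21 by 0.25; neither passed when replicate 1, 2 or 4 of Young ND or replicate 3 or 4 of Old CR-ND was left out. Of the 59 genes, 56 were on average higher in Old CR-ND, whether or not they passed. The count of rises was 6 within the first set, 0 within the second, 6 with the set as a block, 11 after a further quantile normalisation and 0 after centring. Of 49 oxidative phosphorylation subunits 1 rose and 2 fell (median -0.106), with Cox6a1 at -0.38 ± 0.08 (adjusted p = 0.00388). The rise, Sdha at 0.32, was lost without Young ND replicate 1 or 2 or Old CR-ND replicate 2. The other fall, Sdhb at -0.29, was lost without Old CR-ND replicate 1, 3 or 5 or Young ND replicate 2 or 5, while 4 fell without Young ND replicate 3.

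Some signalling genes passed, beside 3.22% rises and 3.82% falls over all genes. In the Hedgehog pathway 2 of 16 rose: Gas1, a co-receptor, by 0.84 ± 0.13 (adjusted p = 0.000379), and Ptch1, receptor and target, by 0.88 ± 0.23 (adjusted p = 0.0198), the latter lost without Old CR-ND replicate 1 (adjusted p = 0.054) or 2 (0.056). In the Wnt pathway 4 of 40 rose and 1 fell, with 2 rises without Old CR-ND replicate 2 or 3 or Young ND replicate 5. Lgr5, an R-spondin receptor, read 6.11, 5.07, 5.68, 5.11 and 5.50 against 6.24, 7.15, 7.06, 7.06 and 6.48. Its groups nearly touched, and it rose by 1.30 ± 0.25 (adjusted p = 0.00189) or by 0.79 with its probe sets averaged. The ligand Wnt9a rose by 0.53 ± 0.12 (adjusted p = 0.0058) and the Wnt inhibitor Notum was at -0.45 ± 0.08 (adjusted p = 0.000754). In TGF-beta and BMP signalling 1 rose and 1 fell of 39. The rise, of the decoy receptor Bambi by 0.57 (adjusted p = 0.04999), was lost when any 1 of the 10 arrays was left out (adjusted p from 0.0539 to 0.122). The list had no rise within the first set or after centring and 2 with the set as a block. The fall was the ligand Bmp7 at -0.85 ± 0.15 (adjusted p = 0.00119). The insulin-like growth factor axis had 1 rise of 17, Igf2, while Igf1 was at -0.17 ± 0.14 (adjusted p = 0.569), with 0.16 within the first set and -0.67 within the second. Egr2 was the 1 rise of 29 immediate early genes, at 0.72 ± 0.13 (adjusted p = 0.00122), and Fkbp5, a glucocorticoid target, the 1 of 25 glucocorticoid and FOXO targets, at 0.49 ± 0.11 (adjusted p = 0.00605). Without Old CR-ND replicate 5 both lists had 2 rises, the latter also without Old CR-ND replicate 4, and 1 immediate early gene fell without Young ND replicate 3. Of 19 circadian genes 2 fell: Nr1d2 by 0.53 ± 0.11 on the log2 scale (adjusted p = 0.00405) and Clock at -0.36 ± 0.08 (adjusted p = 0.0058).

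Some markers of division and arrest passed, beside 3.22% rises and 3.82% falls over all genes. Of 41 DNA replication and mitosis genes 3 rose (median 0.068), and 13 of the 41 lay above the median gene level (5.875). Among the rises, Rrm1, a ribonucleotide reductase subunit, was at 0.37 ± 0.08 (adjusted p = 0.0084) and the helicase subunit Mcm4 at 0.36 ± 0.09 (adjusted p = 0.0109). Mki67 was at -0.08 ± 0.08 (adjusted p = 0.706) and read 4.97 to 5.37 in these groups, under that level. Cdkn1c was the 1 rise of 21 cell cycle inhibitors and p53 targets, with 2 rises without Old CR-ND replicate 3 and 1 fall without Young ND replicate 1. Cdkn2b, p15, was higher in every refed array, 4.88 to 5.58 against 4.30 to 4.79, and missed the threshold at 0.50 ± 0.15 (adjusted p = 0.0559). Cdkn1a, p21, was at 0.02 ± 0.07 (adjusted p = 0.923) and Cdkn2a at -0.08 ± 0.14 (adjusted p = 0.844). Cdkn2a was dim, at 4.86 to 5.42 in these groups, under the median gene level. Of 35 autophagy and lysosome genes 1 rose, Scarb2 at 0.57 ± 0.10 (adjusted p = 0.00143), and 2 fell, Ctsh at -0.88 ± 0.16 (adjusted p = 0.00161) and Wipi1 at -0.48, with 4 falls without Old CR-ND replicate 1. Among 46 homeobox and positional factors 4 rose and 1 fell, led by Tbx18 at 0.64 ± 0.14 (adjusted p = 0.00503), and 1 or 2 rose without Old CR-ND replicate 2 or Young ND replicate 2, 4 or 5. The fall, Hoxb2 at -0.25, was not stable: leaving out any array but Young ND replicate 2 changed the count of falls to 0 or 2. Of 24 genes that mark subsets of dermal fibroblasts 4 rose, among them the calcification inhibitor Mgp at 1.02 ± 0.25 (adjusted p = 0.0151). Leaving out replicate 1 of Young ND or replicate 3 of Old CR-ND reduced these 4 to 2.

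Of 18 cell type lists, which include those of fibroblasts and of the sorting markers, 12 had no call and 6 had 1 each. The lists held 2 to 13 measured members, so a share of lists cannot be set beside the 7.04% of all genes that changed. Many of these markers were dim. Above the median gene level lay 2 of 12 endothelial, 2 of 12 macrophage and dendritic cell and 2 of 10 pericyte and smooth muscle genes. Kcnj8, a potassium channel of pericytes, was among the 12 largest rises, at 6.01, 5.72, 6.30, 5.09 and 5.32 in Young ND and 6.77, 7.77, 7.48, 6.96 and 7.55 in Old CR-ND, a difference of 1.62 ± 0.27 (adjusted p = 0.000696). It was the 1 of 10 pericyte and smooth muscle genes to pass, and the list's mean level was 4.91 to 5.14 in Old CR-ND and 4.77 to 4.9 in Young ND. Tek, an angiopoietin receptor of endothelium, was the 1 of 12 endothelial genes, at 1.43 ± 0.29 (adjusted p = 0.00289), with list means of 5.05 to 5.21 against 4.81 to 5.07 and Pecam1 at -0.01. Csf1r, the receptor of macrophage colony-stimulating factor, fell as 1 of 12 macrophage and dendritic cell genes: 7.98, 7.68, 7.64, 7.59 and 7.49 against 6.83, 6.88, 6.55, 6.58 and 6.94, at -0.92 ± 0.10 (adjusted p = 9.32e-06), with list means of 4.93 to 5.17 against 4.94 to 5.04. Of the 12 macrophage and dendritic cell genes 9 were on average higher in Old CR-ND and 3 lower. Of the 12 endothelial genes 5 were higher and 7 lower, and of the 10 pericyte and smooth muscle genes 6 and 4. F13a1, coagulation factor XIII A, which macrophages also express, is outside these lists and was among the 12 largest falls at -2.0 ± 0.29 (adjusted p = 0.000142). The other single calls were Cd24a, Col1a1 of the fibroblast list and Mkx, a tendon transcription factor, at 1.00 ± 0.21 (adjusted p = 0.00457). The part of these cell types in the results was not tested.

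Of the largest rises not yet given, Csprs (2.18), Galnt15 (1.99, a mucin-type glycosyltransferase), Plscr4 (1.62, a phospholipid scramblase) and Tktl1 (1.64, a transketolase-like gene) read higher in Old CR-ND; Csprs belongs to near-identical copies. With probe sets averaged Galnt15 was at 1.20, Plscr4 at 1.02 and Csprs at 1.55. Tktl1 overlapped between groups, at 4.21 to 6.70 and 5.90 to 7.64, and lost its call without Old CR-ND replicate 1, 2 or 3 or Young ND replicate 2, 4 or 5 (adjusted p up to 0.102). Within each of the sets all 24 of the largest rises and falls kept a difference of at least 1 log2 unit in their direction. Groups did not overlap in 22 of them, all but Tktl1 and Cbr2, and in 6.59% of all genes. The 24 were chosen for their size on these same arrays, so both counts largely follow from the choice and are no separate check.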

How the data were processed

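Gene expression was measured on 20 Affymetrix arrays, 5 for each of 4 groups, from amplified cDNA of sorted dermal fibroblasts; the labels call the 5 arrays of a group biological replicates. The authors deposited 1 table of log2 values, made with RMA in the affy package per the submitters' processing notes; versions are not given in the sources used here. RMA equalises the distributions of the arrays, so a shift of all genes together cannot be seen.

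Of 45141 probe sets, 28898 named 1 gene in the platform annotation, 551 named several, 15692 named none, and 28689 of the first were matched to RefSeq symbols. Each of 17097 genes was taken at its probe set with the highest mean over 20 arrays. Groups were compared with limma 3.58.1 in R 4.3.3 (lmFit and eBayes over all 4 groups, two-sided, 16 residual degrees of freedom), with Benjamini-Hochberg adjustment over all genes at 0.05. Errors are the standard errors of the fit. On data simulated for Old CR-ND against Young ND over 17097 genes, the test called 79.1% of genes changed by 0.5, 98.5% of those changed by 1 and 100% of those changed by 2 on the log2 scale, and 11 unchanged genes. The simulation changed 66 or 67 genes of each size, with normal noise independent between arrays and genes and no difference between the sets. Its shares therefore need not hold for the real arrays. The number of arrays limits the precision.

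Genes named are the 12 largest rises and falls past the threshold whose higher group mean exceeded the median gene level (5.875), up to 4 members of each list by adjusted p, fixed markers, and, beyond these, the remaining members of a list that passed. The members and lists were chosen with earlier results of these data known. Alternatives were other sample sets, array number set as a block or taken singly, filters on dim genes, probe set rules, normalisations, eBayes settings, array weights, and leaving out each array.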

Additional observations from a re-analysis of the deposited data

Results flagged for a closer look

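In 18 of 326 tests of a named gene in a group of 5, the highest or lowest array lay farther from its neighbour than Dixon's critical value allows; chance alone gives such a call in about 0.05 of groups. Young ND held 11 of them and Old CR-ND 7. Young ND replicate 1 accounts for 9: it was the lowest of its group for Tmem176b (7.57), C4b (8.06), Apoe (6.88), Flrt1 (6.94) and Ccn2 (4.74), and the highest for Col15a1 (11.40), Col4a1 (11.66), Il7 (4.30) and the melanocyte gene Mlana (4.32). The other Young ND arrays were replicate 3 for Reck (8.35) and replicate 5 for Rrm1 (7.19).

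Among Old CR-ND arrays the far values were Mirg in replicate 1 (5.20), Csprs in replicate 2 (7.41), Loxl2 (7.71) and the B cell gene Cd79a (7.02) in replicate 3, Cx3cl1 (8.41) and Ldhb (8.04) in replicate 4, and Mlana in replicate 5 (4.51). Outside the named genes, 509 of the 15692 probe sets without a gene name changed between Old CR-ND and Young ND (3.24%; limma, Benjamini-Hochberg adjusted p under 0.05 over these probe sets), 228 up and 281 down, 69 of them at least 2-fold.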

How the results depend on the processing

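Of 122 named genes past the threshold, all 122 kept their direction under every alternative run, 100 stayed past it under every alternative that kept all arrays of the comparison together, and 92 without each array in turn; within the single sets many missed it. The count of genes changed, Old CR-ND against Young ND, was 1203 and became 795 within the first set, 621 within the second, and 790 to 1187 without each array in turn, and it was 1754 with the set as a block, 1475 with array weights and 1157 to 1486 under the other alternatives run. For Old CR-ND against Old ND the count of 1 became 0 with those groups only, 8 with the set as a block, 22 and 0 within the first and second sets, 3 above the median level, 2 above the lower quartile, 6 with every probe set, 2 after quantile normalisation, and 1 to 5 without each array. Signs turned only for genes that did not pass in the main comparison. Within the first set these were Epcam (-0.0633), Cdkn1a (-0.00333) and Igf1 (0.163), and within the second Tpsab1 (0.02), Fmo2 (-0.04), Ptprc (0.055), Kit (0.045) and Pecam1 (0.01). After centring, Epcam and Cdkn1a were each at -0.018, with array weights Epcam was at -0.014, and with probe sets averaged Kcnma1 was at -0.001. Without each array in turn Ptprc ran from -0.033 to 0.0145, Kit from -0.0505 to 0.003, Pecam1 from -0.029 to 0.0095, Epcam from -0.0775 to 0.0875 and Cdkn1a from -0.007 to 0.0555. The cause was not tested. No paired analysis was possible because the labels give the arrays no replicate numbers shared between groups. Collection days were not used here, and values near the lower quartile of the arrays limit the size of a fall.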

Other observations

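Other genes changed at least 2-fold between Old CR-ND and Young ND without belonging to the sets described; they were chosen after their values were seen. Higher in Old CR-ND were Calcrl, a receptor component for calcitonin gene-related peptide and adrenomedullin, by 1.67 ± 0.20 on the log2 scale (adjusted p = 2.19e-05, limma), transferrin, Trf, by 1.59 ± 0.20 (adjusted p = 4.03e-05), tissue plasminogen activator, Plat, by 1.54 ± 0.20 (adjusted p = 4.62e-05), and thrombomodulin, Thbd, by 1.40 ± 0.21 (adjusted p = 0.000173). Penk, the precursor of enkephalins, rose by 1.34 ± 0.18 (adjusted p = 5.93e-05). Their differences in Old ND against the same young arrays were 1.71 for Calcrl, 1.5 for Trf, 1.47 for Plat, 1.63 for Thbd and 1.32 for Penk.

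Lower in Old CR-ND were the chaperone Fkbp11, by -1.67 ± 0.14 (adjusted p = 2.42e-07) or -0.62 with its 3 probe sets averaged, and the growth factor Clec11a, by -1.42 ± 0.17 (adjusted p = 2.38e-05). Prdm8, a transcriptional regulator, rose by 1.48 ± 0.32 (adjusted p = 0.00597) and was at 0.38 in Old ND (adjusted p = 0.554), and its direct difference between the old groups, 1.10, did not pass (adjusted p = 0.616). Far2, a fatty acyl-CoA reductase, rose by 1.46 ± 0.32 (adjusted p = 0.00599) with overlapping arrays, and its direct difference from Old ND, 1.26, did not pass (adjusted p = 0.396).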
